A study of Mus musculus with 23 samples.

Results

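The re-isolated cells of both Notch1-edited lines were set against all re-isolated control cells. The members are 16 of the 23 mouse RNA-seq libraries: 4 from N1OE cells, 3 from N1KO cells and 9 from controls. All 3 groups are iPax3 cells, embryonic stem cell derivatives driven into the muscle lineage by induced Pax3, and were labelled as satellite cells of donor origin re-isolated after engraftment. In N1OE cells NICD1, the part of Notch1 that is freed inside the cell, is overexpressed. N1KO cells carry a Notch1 knockout, and the controls are labelled wild type. All 16 were lysed in Buffer RLT and made into libraries with a low-input cDNA kit and Nextera XT. The promoter driving NICD1, the knockout strategy, the number of clones per line, the host mice and the time in the muscle are not given in the sources used here. Nor do the labels say whether the libraries of a group came from separate mice, so p-values measure the spread between these libraries.

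Notch1 is a cell surface receptor that is cut when it binds a ligand on a neighbouring cell. This freed part enters the nucleus, joins the DNA-binding protein RBP-J and switches on targets such as the Hes and Hey genes. In muscle, this pathway holds satellite cells, the resident stem cells, in an undifferentiated state. The edits push the pathway in opposite directions, so a gene that follows Notch activity should part the 2 lines. The question here was which genes moved the same way in both lines.

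Few genes did. Levels are given in CPM, which divides reads by the library total and brings all libraries to a common size. A gene was counted as moved the same way when the mean of both lines differed from the controls at an adjusted p under 0.05 (limma) and each line by itself went the same way at an unadjusted p under 0.05. Of 14155 genes with at least 1 CPM in 3 of the 16 libraries, 86 were higher in both lines (0.608% of those tested) and 35 were lower in both (0.247%), together 121 (0.855%). The mean contrast alone called 201 genes (1.42%), of which 133 were higher (0.94%) and 68 lower (0.48%). Of these 201, 66 had an unadjusted p under 0.05 in N1OE only and 14 in N1KO only. By contrast the lines differed from each other in 1040 genes (7.35%). Against the 9 controls, N1OE differed in 1000 genes (7.06%) and N1KO in 93 (0.657%). These comparisons share the control libraries, and the count of each line changed with the controls used, as given below.

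The libraries held 11637817 to 29154176 reads. The smallest had a 3-read level of 0.258 CPM and the largest one of 0.103 CPM. All 8 defining genes of muscle stem cells were detected in every group. Pax7, the transcription factor that marks satellite cells, stood at 11.5 to 113 CPM in controls, 91.8 to 154 in N1OE and 19.9 to 153 in N1KO. The controls fall into 2 sets: the column headers of replicates 1, 4, 7, 8 and 9 carry the suffix GoF, and those of replicates 2, 3, 5 and 6 do not. The labels do not explain the mark, and the description of replicate 7 lacks it. The number of genes with 1 read divided by the number with 2 was 4.17 to 5.91 in marked controls and 4.18 to 6.82 in N1OE, against 1.08 to 1.5 in unmarked controls and 1.25 to 1.40 in N1KO. Counts of reads thus had one form in marked controls and N1OE and another in the remaining libraries, and the part of this in the results was not tested. N1OE and N1KO differ in this form as well as in the edit. Their direct comparison cannot tell the edit and the form apart.

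Among the settings run, the choice of controls moved these counts the most. With marked controls only, 597 genes moved the same way in both lines, and with unmarked controls only 908. With control replicate 7 placed by its description the same counts were 327 and 113, so the count against unmarked controls rests on where that 1 library is placed. For comparisons that share no control library, N1OE was set against marked and N1KO against unmarked controls. Then 37 genes (0.261%) passed an adjusted p under 0.05 in both and in the same direction, 25 higher and 12 lower, while 315 (2.23%) passed in opposite directions. The other pairing gave 57 and 258, and 16 genes were called the same way by both pairings. Of the 121 genes, 30 were among the 37. Calls in opposite directions thus outnumbered common ones in both pairings. In the other pairing each line was set against controls with the other form of read counts. Any difference between those forms enters its 2 comparisons with opposite signs, and its part in the 258 was not tested.

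**Figure D1:**
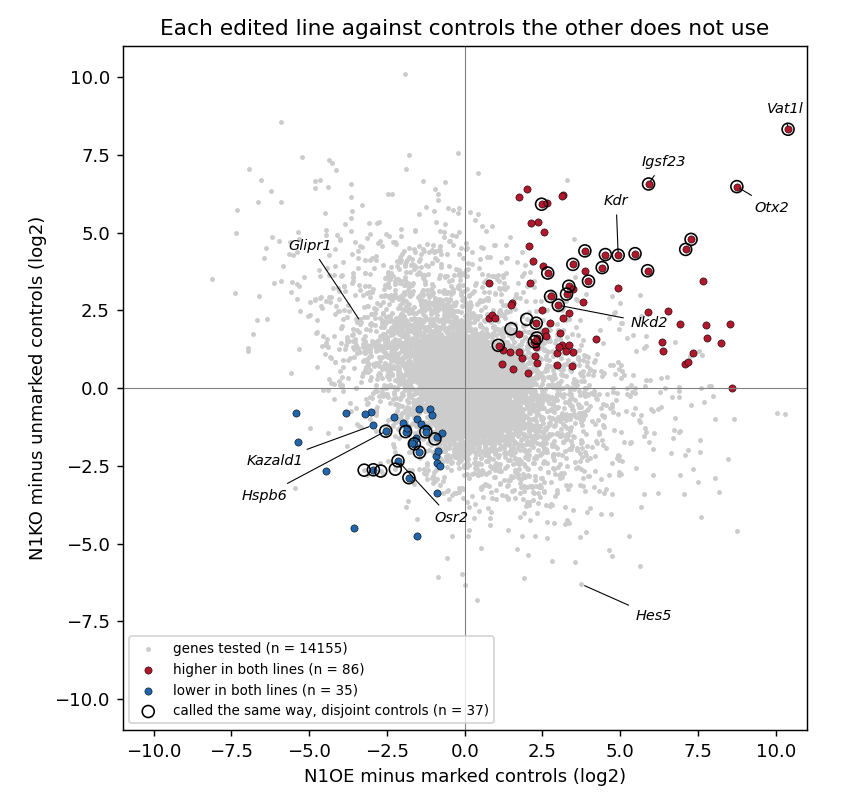
Each of the 14155 genes tested, by its log2 difference between N1OE and marked controls (horizontal) and between N1KO and unmarked controls (vertical), which share no library. Red and blue points are the 86 and 35 genes moved up or down in both lines over all 9 controls, and rings are the 37 genes called the same way in both plotted comparisons.

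The targeted gene gives the scale of the edits. Notch1 was read at 247, 257, 151 and 98.1 CPM in the 4 N1OE libraries and at 15.6, 19.8 and 52.6 in N1KO. Controls ranged from 14.9 to 174 CPM with a median of 88.9. The N1KO libraries lay below all unmarked controls (136 to 174) but within the marked ones (14.9 to 88.9). In log2, N1OE exceeded N1KO by 2.79 (limma adjusted p = 0.0177), and the mean of both lines was 0.17 below the controls (SE 0.46, adjusted p = 0.932). Reads were summed over the gene, so remaining transcript and NICD1 reads could not be told from whole Notch1.

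None of the 12 Notch target genes tested was called in the mean contrast, by limma or by limma-voom, and 0 had an unadjusted p under 0.05. Their median difference was 0.04 for the mean of both lines, 0.71 in N1OE and -0.83 in N1KO, beside 0.04, 0.06 and 0.01 over all genes tested. Heyl, a transcriptional repressor downstream of Notch, stood at 776, 921, 696 and 570 CPM in N1OE and at 92.4, 71.2 and 222 in N1KO. N1OE exceeded N1KO in Heyl by 2.68 (adjusted p = 0.0270), in Hey1 by 2.83 (0.0249), in Hey2 by 3.04 (0.00847), in Hes5 by 5.76 (0.0185) and in Dtx4, a Notch regulator, by 2.16 (0.0181). The rest of the 12 (Hes1, Nrarp, Notch3, Lfng, Bcl6, Gadd45g and Dtx1) did not differ between the lines at an adjusted p under 0.05. Of all genes tested, 7.35% did. With marked controls only, 1 target was called higher in the mean contrast, and with unmarked controls only 4 were called lower. Over all genes tested, those shares were 4.33% called higher with marked controls only (600 of 13870) and 5.92% called lower with unmarked controls only (819 of 13832). The control sets themselves differed in Hes1, Hes5, Hey1, Heyl, Nrarp and Dtx1 (adjusted p = 8.35e-05 to 0.00661).

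Opposite movement at an adjusted p under 0.05 in each line over all 9 controls was found for 6 genes (0.0424%), and all 6 were lower in N1OE and higher in N1KO. Glipr1 was at 1.03, 0.309, 1.12 and 2.96 CPM in N1OE, at 58.3, 49.3 and 49.9 in N1KO and at 7.03 to 18.7 (median 11.9) in controls. Pltp, a phospholipid transfer protein, had 3.61 to 8.68 CPM in N1OE, 80.0 to 150 in N1KO and 26.7 to 72.7 in controls. Wnt5b, a Wnt ligand, had 1.04 to 2.22, 19 to 32.6 and 2.0 to 9.59 CPM in the same order, and Itgbl1, an integrin-like secreted protein, 8.15 to 12.8, 236 to 823 and 31.2 to 236. The remaining pair were Duoxa1 and the predicted gene Gm12695. Without N1KO replicate 1 or 2 the count was 0, and without N1KO replicate 3 it was 14.

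The largest rises in both lines were genes that the controls hardly expressed. Of the 86, 42 had a control mean under 1 CPM. A ranking by log2 difference with a small prior for 0 reads favours such genes. The filter could also admit them through the edited libraries alone. The share of all genes tested with so low a control mean is not given, so this count is no result about the rises. Vat1l, a relative of the vesicle amine transport protein Vat1 (chromosome 8, 114205612 to 114374071, plus strand), was read at 114, 273, 51.4 and 99.8 CPM in N1OE and at 22.9, 46.1 and 66.2 in N1KO. In controls it had 0 CPM at the lowest and at the median, and 8 of 9 had at most 0.0606. Control replicate 6 had 1.63 CPM, still below every edited library. The mean log2 difference was 9.39 (SE 0.65, limma adjusted p = 5.04e-08), and its size depends on the prior that stands for 0 reads.

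Otx2, a homeobox transcription factor of the early head and forebrain (chromosome 14, 48657677 to 48673819, minus strand), showed the same form. It had 7.92, 49.7, 38.5 and 62.9 CPM in N1OE and 14.4, 20.5 and 21.9 in N1KO. Of the controls, 8 had at most 0.0835 CPM and control replicate 6 had 4.64. Edited libraries were all above controls, with a difference of 7.70 (SE 0.80, adjusted p = 3.92e-05). Igsf23, an immunoglobulin superfamily gene, had 8.30 to 34.8 CPM in N1OE, 16.5 to 24.3 in N1KO and 0 to 1.87 (median 0.138) in controls, a difference of 6.22 (SE 0.73, adjusted p = 9.69e-05).

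**Figure D2:**
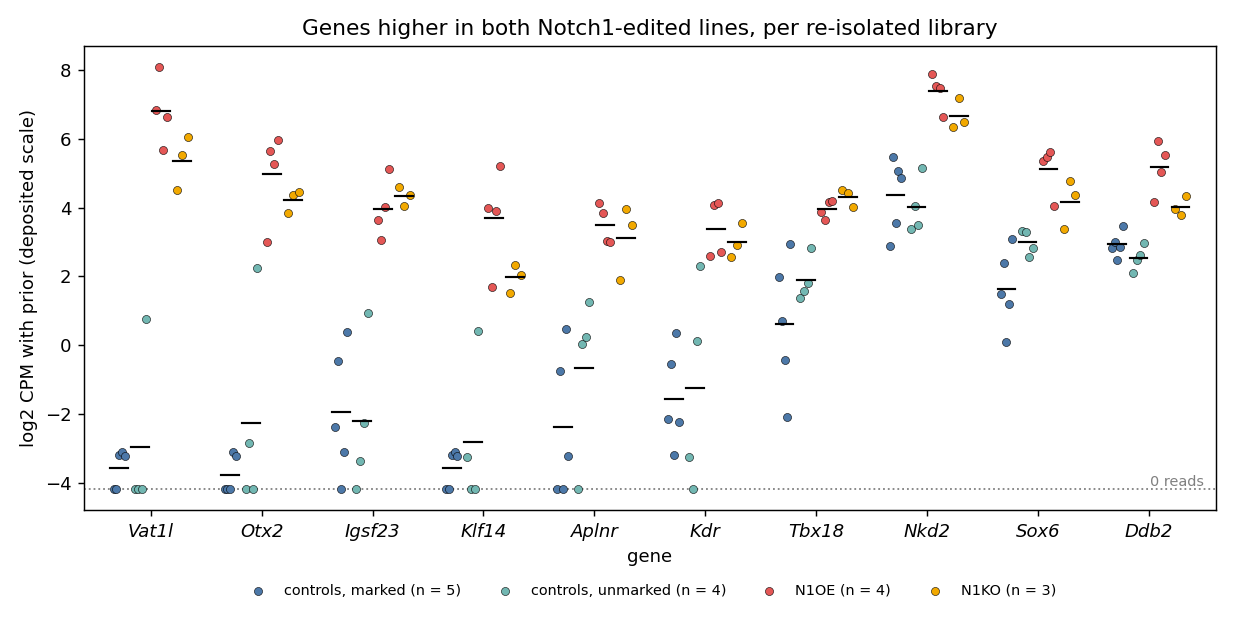
Levels of 10 genes that rose in both lines, on the deposited log2 CPM scale, per re-isolated library (points) with group means (bars). The 7 edited libraries lie above all 9 controls in all 10 genes, and the dotted line marks 0 reads.

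Vat1l, Otx2 and Igsf23 also passed in both comparisons with separate controls. These comparisons use the same libraries from which the genes were picked, so they are not independent support. Vat1l differed by 10.40 in N1OE against marked and by 8.32 in N1KO against unmarked controls, Otx2 by 8.75 and 6.48, and Igsf23 by 5.91 and 6.56 (adjusted p at most 0.0011). Their calls held without each library in turn. Control replicate 6 was the highest control in 35 of the 86 genes (40.7%) that rose, compared with 10.1% of all genes tested. No other control was highest in more than 13 of the 86. Without that replicate the same-way count was 137.

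Size differed between the lines in some of these genes. Over all genes tested, 1040 of 14155 (7.35%) differed between the lines at an adjusted p under 0.05 (limma). A count near that share is no result about the 121 genes, of which 12 differed at that level. Among them was Npy1r, a neuropeptide Y receptor, with 9.60 to 20 CPM in N1OE, 0.322 to 3.85 in N1KO and 0 to 0.602 in controls (N1OE above N1KO by 3.53, adjusted p = 0.0440). Klf14, a Krüppel-like transcription factor, had 3.15 to 36.7, 2.81 to 5.01 and 0 to 1.27 CPM in the same order, and the lines' difference did not pass (1.72, adjusted p = 0.339). Gimap9, an immune-associated GTPase gene, had 5.25 to 13, 0.337 to 5.78 and 0 to 0.361 CPM, so that 1 N1KO library lay below control replicate 6. Its difference between the lines did not pass either (2.13, adjusted p = 0.222). Npy1r, Klf14 and Gimap9 fell outside the naming rule and were chosen after their values were seen.

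Transcription factors and signalling regulators were also among the rises. Nkd2, an inhibitor of Wnt signalling that binds Dishevelled (chromosome 13, 73818534 to 73847631, minus strand), had 236, 185, 177 and 100 CPM in N1OE, 81.3, 146 and 90.7 in N1KO and 7.39 to 44.3 (median 16.3) in controls. No library overlapped, and the difference was 2.82 (SE 0.36, adjusted p = 0.000261). It was among the 2 of 25 tested Wnt pathway genes called higher in the mean contrast, beside 0.94% of all genes tested. The other, the Wnt agonist Rspo1, was 4.94 higher (adjusted p = 0.0270) without meeting the rule in both lines. The list did not rise as a whole, with a median of -0.28 in the mean contrast, -1.43 in N1OE and 0.78 in N1KO. In N1OE by itself, 2 of the 25 were called higher and 7 lower, and in N1KO 1 higher and 0 lower. Over all genes tested these shares were 3.78%, 3.29%, 0.466% and 0.191% in that order.

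Tbx18, a T-box factor of somites and mural cells, had 14.7, 12.4, 17.9 and 18.4 CPM in N1OE, 22.9, 21.3 and 16.1 in N1KO and 0.182 to 7.65 (median 2.92) in controls (difference 2.96, SE 0.57, adjusted p = 0.0126). Tbx3, of the same family and chosen after its values were seen, had 18.2 to 63.0 CPM in N1OE, 9.36 to 18.4 in N1KO and 0 to 10.1 in controls (4.34, adjusted p = 0.0129), with 1 N1KO library below the highest control. Sox6, a repressor of slow muscle fibre genes, had 16.4 to 48.6, 10.3 to 27.2 and 1.01 to 9.97 CPM in the same order (2.40, adjusted p = 0.0108). Against unmarked controls alone the N1KO difference of Sox6 was 1.17 (adjusted p = 0.251). Ddb2, a DNA damage recognition protein also chosen after its values were seen, had 17.8 to 61.3, 13.9 to 20.3 and 4.22 to 11 CPM (1.85, SE 0.28, adjusted p = 0.00200).

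The cilium gene Tmem231 and Sh3bgrl2 completed the 10 largest non-overlapping rises among genes with a mean of at least 5 CPM in each line. Sh3bgrl2 was at 16.8 to 39.2 CPM in the edited libraries and 0.760 to 14.0 in controls (2.31, adjusted p = 0.0129). Tmem231 was at 9.96 to 18.2 and 0.553 to 7.14 CPM (2.14, adjusted p = 0.0182, and 0.0505 without N1KO replicate 3). In all, 33 genes had all 7 edited libraries above all 9 controls (0.233%), of which 25 were among the 86. Only 4 had all 7 below (0.0283%), of which 2 were among the 35.

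Endothelial markers were among the rises. Of 10 endothelial markers, 6 were called higher in the mean contrast and 5 of these moved the same way in both lines, with a list median of 2.06 (1.42 in N1OE and 2.98 in N1KO) beside 0.04 over all genes. Kdr, the main receptor for vascular endothelial growth factor, had 6.0, 16.7, 17.5 and 6.48 CPM in N1OE, 5.85, 7.54 and 11.6 in N1KO and 0 to 4.88 (median 0.173) in controls, with no overlap (4.62, SE 0.78, adjusted p = 0.00481). Emcn, a sialomucin of capillaries and veins, had 2.23 to 13.9 CPM in N1OE, 9.67 to 24.5 in N1KO and 0 to 6.33 in controls (4.21, adjusted p = 0.0149). Esam, an endothelial adhesion molecule, had 10.9 to 24.7, 16.4 to 29.8 and 2.08 to 19.4 CPM (2.04, adjusted p = 0.0129). For both the highest control was replicate 6. Aplnr, the apelin receptor and not on the list, had 7.99 to 17.4, 3.65 to 15.4 and 0 to 2.35 CPM (4.92, adjusted p = 0.00505).

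Pecam1 and Egfl7, chosen after their values were seen, were the remaining pair. Pecam1, the adhesion molecule CD31, was 2.02 higher (adjusted p = 0.0243) and Egfl7, a secreted endothelial factor, 2.08 higher (0.0271). Each lost its call in 4 of 16 fits that left out a library. Cldn5, a tight junction protein, was called in the mean contrast (2.80, adjusted p = 0.0417) but its log2 difference was 0.82 in N1OE and 4.79 in N1KO. Cdh5, the endothelial cadherin, had 0.985 to 5.84 CPM in N1OE, 4.27 to 41.8 in N1KO and 0 to 18.6 in controls and did not pass (adjusted p = 0.466), nor did Tek, Tie1 and Vwf. The list's same-way count was 5 with marked controls only, 6 with unmarked controls only, 4 without N1OE replicate 1 or 2, 3 without N1OE replicate 3 or N1KO replicate 3, and 2 without N1KO replicate 2. Over all genes tested, the share higher the same way was 3% with marked controls only and 2.8% with unmarked controls only. Against separate controls 3 members (Kdr, Emcn and Esam) passed in both lines.

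The summed level of the 10 markers was 9.54 to 63.3 CPM in controls, 60.6 to 127 in N1OE and 73.7 to 196 in N1KO, with 1 control inside the N1OE range. In bulk RNA, more cells of a type and more RNA per cell cannot be told apart. No fibro-adipogenic or macrophage marker was called in the mean contrast. Fibro-adipogenic markers summed to 1468 to 9733 CPM in marked and 139 to 806 in unmarked controls, 490 to 685 in N1OE and 5003 to 14595 in N1KO. Macrophage markers summed to 96.2 to 823, 74.8 to 227, 38.6 to 193 and 251 to 758 CPM in that order. In those 2 lists every N1OE library was below every N1KO library, while the endothelial sum was above 8 of the 9 controls in all 7 edited libraries. The part of other cell types in the rises was not tested.

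**Figure D3:**
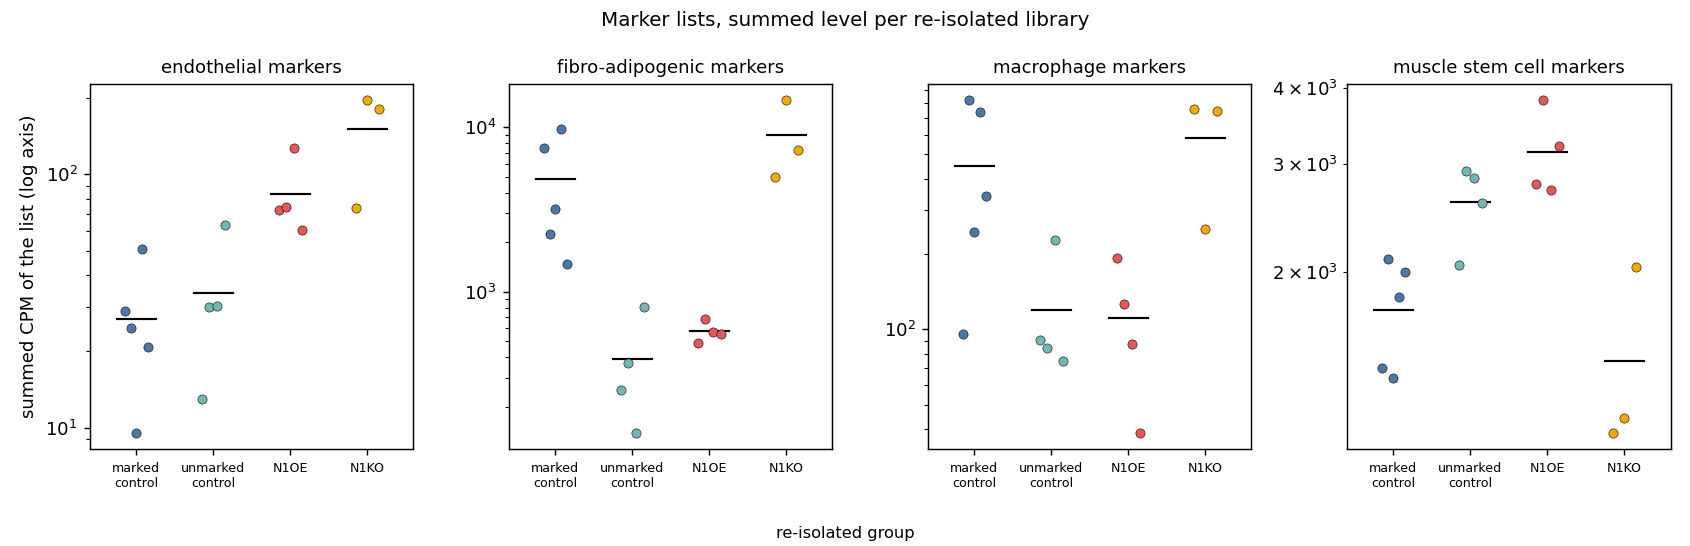
Summed CPM of 4 marker lists per re-isolated library (points, log axis) with group means (bars). Endothelial markers were at 60.6 to 196 CPM in the 7 edited libraries and at 9.54 to 63.3 in the 9 controls, while in the other 3 lists the N1OE and N1KO libraries lay apart.

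A sequence search was made in the 250 bases before the RefSeq start of these genes (GRCm38.p6). The motif searched, on both strands, was GTGGGAA, a core sequence bound by RBP-J. Of 11120 tested genes with a promoter in the table, 5.49% held it, as did 4 of 61 genes that rose (Kdr, Rbp7, Slc26a8 and Tbx18) and 3 of 23 that fell (Atp5k, Cgnl1 and Romo1). The sequences of the 2 largest rises, which lack it, are set beside 2 that hold it. They are written 5′ to 3′ along the gene, with the motif or its reverse complement in capitals. Vat1l is chr8:114205390-114205639 (plus strand), Otx2 chr14:48667645-48667894 (minus, the most upstream of 4 starts), Kdr chr5:75978456-75978705 (minus) and Tbx18 chr9:87731261-87731510 (minus).
Vat1l: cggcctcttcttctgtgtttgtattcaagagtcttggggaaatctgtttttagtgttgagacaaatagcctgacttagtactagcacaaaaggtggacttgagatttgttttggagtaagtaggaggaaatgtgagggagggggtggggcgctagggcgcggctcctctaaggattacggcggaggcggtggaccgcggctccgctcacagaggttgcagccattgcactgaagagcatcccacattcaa
Otx2: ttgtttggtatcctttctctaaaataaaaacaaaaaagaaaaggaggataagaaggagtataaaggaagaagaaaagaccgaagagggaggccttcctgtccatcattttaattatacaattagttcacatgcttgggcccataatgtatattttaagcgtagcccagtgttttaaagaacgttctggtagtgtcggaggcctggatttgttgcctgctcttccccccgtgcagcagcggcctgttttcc
Kdr: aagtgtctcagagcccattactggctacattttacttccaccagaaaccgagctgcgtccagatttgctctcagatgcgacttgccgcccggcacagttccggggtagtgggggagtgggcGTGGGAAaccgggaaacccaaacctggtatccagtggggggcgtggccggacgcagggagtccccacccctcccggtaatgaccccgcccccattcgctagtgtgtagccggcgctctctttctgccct
Tbx18: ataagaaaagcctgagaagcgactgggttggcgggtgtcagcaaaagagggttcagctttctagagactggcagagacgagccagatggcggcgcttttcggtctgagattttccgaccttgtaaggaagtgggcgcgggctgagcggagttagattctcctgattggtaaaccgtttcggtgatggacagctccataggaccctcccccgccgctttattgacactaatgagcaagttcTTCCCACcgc

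The share of rises with the motif (6.56%) was near that of all genes (5.49%). For the falls it was 13%, but 3 of 23 genes are too few to compare. The Kdr match lies on the gene's own strand and the Tbx18 match on the other one, close to the start. A match is a description of these letters only.

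The falls were fewer. Kazald1, a secreted protein with insulin-like growth factor binding and Kazal domains (chromosome 19, 45075241 to 45079289, plus strand), had 11.9, 3.20, 6.36 and 12.3 CPM in N1OE, 21.0, 33.1 and 23.1 in N1KO and 40.1 to 108 (median 58.2) in controls. No library overlapped, and the difference was -2.08 (SE 0.30, adjusted p = 0.000962). The fall was deeper in N1OE (N1OE minus N1KO -1.76, adjusted p = 0.0195). Emilin2, an extracellular matrix glycoprotein, was the other fall without overlap, at 5.33 to 14.4 CPM in N1OE, 8.64 to 13.2 in N1KO and 16.3 to 45.9 in controls (-1.29, adjusted p = 0.0327). Its call was lost in 10 of 16 fits that left out a library (highest adjusted p 0.104).

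Other falls left some overlap with the controls. Igfbp2, an insulin-like growth factor binding protein (chromosome 1, 72824503 to 72852474, plus strand), had 135, 70.4, 86.4 and 65.8 CPM in N1OE, 521, 230 and 139 in N1KO and 353 to 2128 (median 692) in controls. All N1OE libraries were below all controls and 1 N1KO library overlapped them (-2.40, SE 0.39, adjusted p = 0.00361). The N1KO difference from unmarked controls alone was -0.82 (adjusted p = 0.325). Hspb6, a small heat shock protein of muscle, had 5.16 to 15.1 CPM in N1OE, 16.9 to 51.1 in N1KO and 32.8 to 101 in controls (-1.93, adjusted p = 0.00182). Cavin4, a caveolar protein of muscle membranes, had 3.11 to 10.5, 7.16 to 42.0 and 27.1 to 56.0 CPM (-2.03, adjusted p = 0.00480), but met the same-way rule in only 10 of 16 fits that left out a library. In Hspb6 and Cavin4 the fall was deeper in N1OE (N1OE minus N1KO -1.65, adjusted p = 0.0260, and -2.12, 0.0137). Igfbp2, Hspb6 and Cavin4 were chosen after their values were seen.

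Msln and Eno3 fell below all controls in every N1OE library, but not in every N1KO library. Msln, the mesothelial surface protein mesothelin, had 1.5 to 2.23 CPM in N1OE, 5.84 to 25.6 in N1KO and 15.3 to 202 in controls (-3.19, adjusted p = 0.00481). Eno3, the muscle enolase, had 44.3 to 58.8, 78.4 to 201 and 128 to 571 CPM (-1.94, SE 0.30, adjusted p = 0.00206), the 1 of 20 glycolysis genes that was called. Osr2, an odd-skipped transcription factor of connective tissue, differed by -2.16 in N1OE and -2.32 in N1KO, with 3.84 to 14.6 CPM in N1OE, 1.98 to 28 in N1KO and 19.9 to 39.5 in controls (-2.24, adjusted p = 0.0115). Within the same libraries it also passed against separate controls in both lines (-2.14 and -2.34). Msln and Osr2 were chosen after their values were seen.

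**Figure D4:**
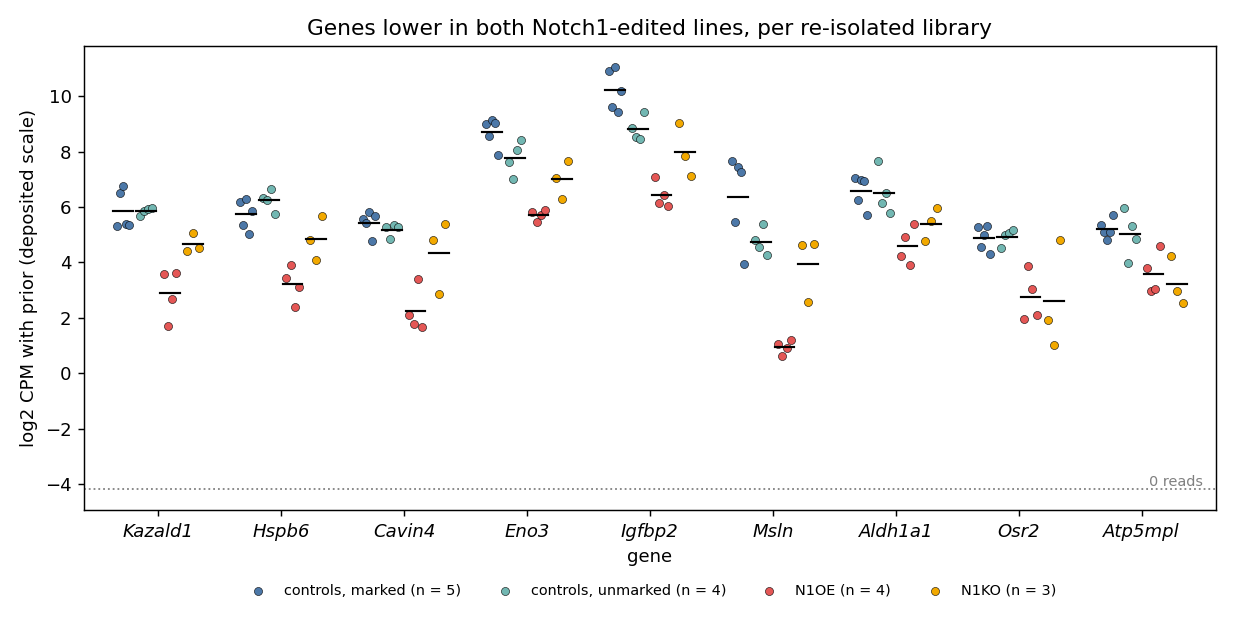
Levels of 9 genes that fell in both lines, on the deposited log2 CPM scale, per re-isolated library (points) with group means (bars). Only Kazald1 has all 7 edited libraries below all 9 controls among the genes shown, and in the others 1 or more edited libraries reach the control range.

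Genes of retinoic acid metabolism moved in both directions. Aldh1a1, which makes retinoic acid, had 14.9 to 41.4 CPM in N1OE, 27.1 to 62.1 in N1KO and 52.5 to 200 (median 91.2) in controls (-1.55, adjusted p = 0.0129). Dhrs3, which turns retinaldehyde back to retinol, had 102 to 159 CPM in N1OE, 171 to 321 in N1KO and 27.5 to 118 in controls (1.48, adjusted p = 0.0105). These were the 2 of 15 tested genes of the list that moved the same way in both lines. Crabp2, a retinoic acid binding protein, was called in the mean contrast only, with -4.64 in N1OE and 0.39 in N1KO. Without N1KO replicate 1 Aldh1a1 no longer met the rule in both lines.

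Oxidative phosphorylation genes gave a few calls. Of 21 oxidative phosphorylation genes, 3 were called lower, 2 of them the same way in both lines (Ndufa4 and Cox6c), with a list median of -0.42. Ndufa4, a cytochrome c oxidase subunit, had 40 to 91.1 CPM in N1OE, 20.5 to 56.9 in N1KO and 44.9 to 153 in controls (-1.28, adjusted p = 0.0259). Cox6c was 1.39 lower, written as -1.39 (adjusted p = 0.0477), and lost its call in 10 of 16 fits that left out a library. The list's same-way count was 0 without N1OE replicate 2 or 3 or N1KO replicate 2 or 3. Atp5mpl, a small subunit of ATP synthase outside the list, had 7.84 to 24.1 CPM in N1OE, 5.69 to 18.5 in N1KO and 15.9 to 62.2 in controls (-1.72, adjusted p = 0.0121). Atp5k, another small subunit, was at -1.78 (0.0195) and the mitochondrial membrane protein Romo1 at -1.37 (0.0270). Romo1 was not called once the trend with transcript length was removed (-0.94, adjusted p = 0.10). These last 3 were chosen after their values were seen.

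Transcript length moved with these falls. Of the 35 genes, 9 (25.7%) have a longest GENCODE transcript under 1000 bases, compared with 3.88% of the genes tested and with 2 of the 86 rises. The 549 tested genes of that length had a median mean contrast of -0.28, and the longer ones 0.05. Removing the length trend gave 129 same-way genes in place of 121, and the part of length in single genes was not tested further.

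Single genes of the other lists changed as follows. Pax3, the induced transcription factor of the line, had 44.9 to 75.5 CPM in N1OE, 27.4 to 49.2 in N1KO and 2.18 to 34.0 in controls (1.95, adjusted p = 0.0279), the 1 of 22 satellite cell markers called. Its call was lost in 6 of 16 fits that left out a library, and its N1KO difference from unmarked controls was 0.75 (adjusted p = 0.460). Reads of the induced copy and of the endogenous gene were not separated. Nog, the BMP antagonist noggin, had 0.570 to 2.01 CPM in N1OE, 0.716 to 24.4 in N1KO and 3.94 to 38.8 in controls (-2.72, adjusted p = 0.0205, and 0.0743 without N1KO replicate 2). Dner, an atypical Notch ligand, was at -3.61 (0.0309) and lost its call in 8 fits, and Erbb3, a neuregulin receptor of Schwann cells, was at 1.66 (0.0469) and lost its call in 13.

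No member was called in 21 of the 33 gene lists, which hold 330 tested genes between them. Among these were the lists of myogenic regulators, sarcomere, cell cycle, extracellular matrix, interferon, ribosomal protein and Hox genes. The lists do not hold every gene of a kind. Outside them, the ribosomal protein genes Rpl41 and Rps29 and the matrix gene Emilin2 were among the genes lower in both lines. By limma-voom 0 of the 330 passed as well, and 51 had an unadjusted p under 0.05 in limma, which is 15.5%, beside 12.8% of all genes tested (1809 of 14155). The 51 include 11 of 27 ribosomal protein genes, whose list had a median difference of -0.55, and 7 of 17 Hox genes, whose list had a median of 1.06. By line, the ribosomal protein medians were -0.69 in N1OE and -0.39 in N1KO. The Hox medians were -0.97 in N1OE and 2.26 in N1KO, so the lines went opposite ways. With unmarked controls only, 2 of 16 myogenic regulators were lower in both lines, beside 3.77% of all genes tested (521 of 13832).

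The cultured libraries give levels in cells the calls did not use, with another kit (TruSeq stranded mRNA after Trizol), so that levels are set side by side only. Vat1l was read in culture at 18.8 to 104 CPM in 4 controls and at 13.9 to 27.4 in 3 N1OE libraries, and Otx2 at 2.44 to 5.38 and 3.91 to 6.42. Pax3 was at 77.8 to 1328 and 358 to 553 CPM, and Tmem231 at 8.68 to 18.5 and 21.2 to 23.3. On the log2 scale, the cultured controls were thus nearer to the re-isolated edited lines than to the re-isolated controls in Vat1l, Otx2 and Tmem231. In Otx2 they were still below every re-isolated edited library. These genes were picked, and others went the other way. Igsf23 (0.357 to 1.57 CPM in cultured controls) and Klf14 (0.0464 to 0.643) were nearer to the re-isolated controls. Pax3 was higher in every cultured library than in any re-isolated one. Of the 86 rises, 17 (19.8%) had all cultured controls above all re-isolated controls, and 11 (12.8%) had them all below. Among all genes tested these shares were 23.0% and 13.9%.

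The endothelial genes Kdr and Emcn were near 0 in culture. Kdr had 0 to 0.476 and 0 to 0.0495 CPM, and Emcn 0 and 0 to 0.0508. Nkd2 had 0 to 5.71 CPM in cultured controls and 0 in the 3 cultured N1OE libraries. In cultured N1OE against cultured controls, 43 of the 86 rises could be tested, and 3 were higher (Tbc1d30, Wasf3 and Tmem229a) and 4 lower (Sox6, Tinagl1, Dhrs3 and Rora). Over 12314 genes the shares called were 4.73% higher and 6.03% lower. Of the 35 falls, 31 could be tested, 0 were higher and 3 were lower (Cgnl1, P2rx5 and Cacna1h). Counts this small, near the background shares, are no result about the 121 genes. No cultured N1KO library was analysed here.

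**Figure D5:**
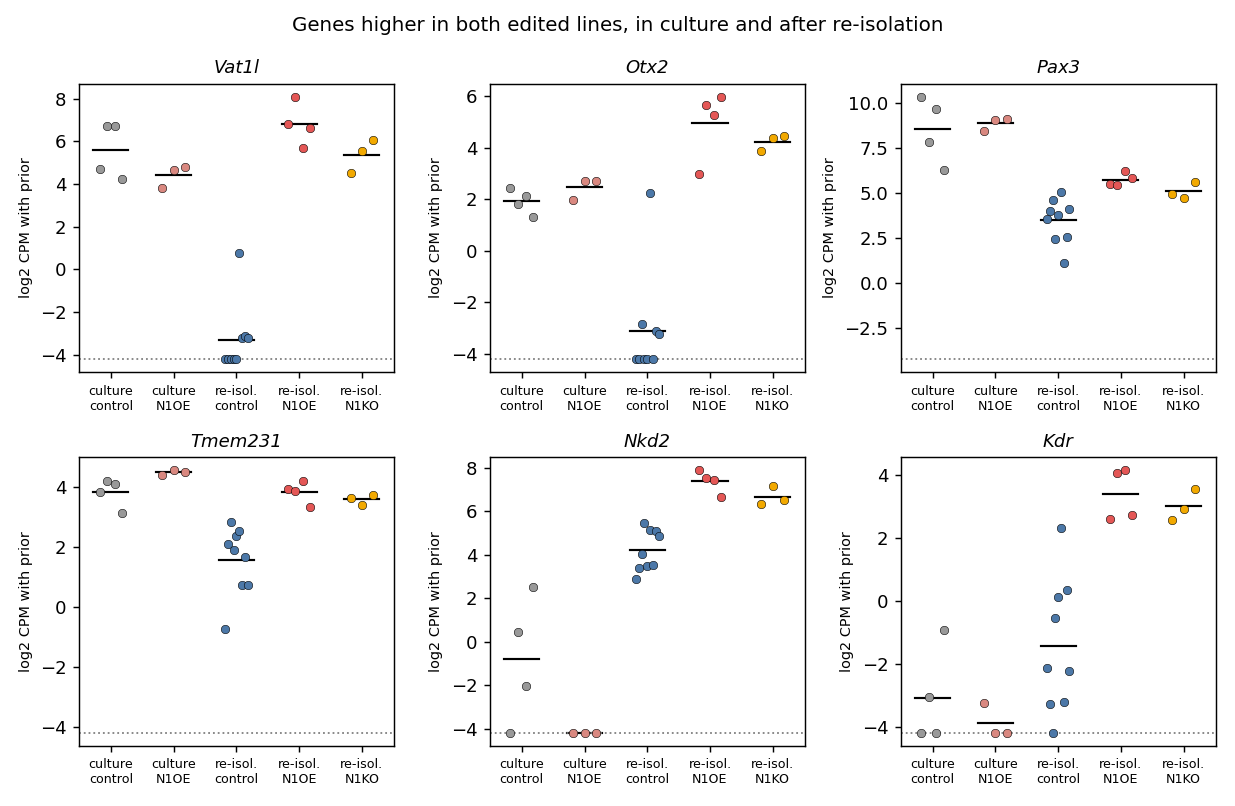
Levels of 6 genes that rose in both lines, on the deposited log2 CPM scale, in cultured controls (n = 4), cultured N1OE (n = 3) and re-isolated controls (n = 9), N1OE (n = 4) and N1KO (n = 3), with points for libraries and bars for means. Vat1l and Tmem231 were higher in all cultured controls than in all re-isolated ones, Otx2 was higher than in 8 of the 9, and Kdr was at 0 to 0.476 CPM in cultured controls.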

How the data were processed

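RNA-seq libraries of re-isolated iPax3 cells (9 control, 4 N1OE, 3 N1KO) were compared, grouped by their titles. The submitters' processing notes name Trimmomatic 0.33, FastQC, featureCounts and edgeR, and the mm10 build. They name no aligner. The authors deposited log2 CPM of 21264 genes with a small prior, and the lowest value, -4.19, stands for 0 reads. CPM and whole reads (tolerance 0.05) were recovered from these log2 values. Coordinates are from GENCODE M21 (GRCm38), which holds 21224 of the gene IDs, and promoters from RefSeq.

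Genes with at least 1 CPM in 3 of the 16 libraries were fitted with limma 3.58.1 (R 4.3.3, trend, two-sided, Benjamini-Hochberg) with a mean per group. Errors are SE of limma, and differences are in log2. The pipeline was tested on simulated data. Members and lists were chosen with earlier results of these data known.

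Genes were named by a rule: the 10 largest rises and falls among same-way genes without overlap and with at least 5 CPM on the higher side, Notch1 and its targets, up to 3 same-way members of each list, and the 4 largest opposite differences. Alternatives were other scalings, pseudocounts, filters, array weights, limma-voom, other control sets, the replicate number as a block and leaving out each library. Disjoint means, the length trend, the culture comparison and list counts under other settings were added after the data were seen. Counting error is covered by no interval here.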

Additional observations from a re-analysis of the deposited data

Results flagged for a closer look

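For each of the 55 named genes the 9 controls and the 4 N1OE libraries were examined as groups, and the N1KO libraries were not. Chance flags about 1 in 20 groups of normally distributed values, a rate that does not hold for groups with many libraries at 0 reads. Of the 110 groups, 10 held a library that stood apart from the rest of its group. In 5 of them control replicate 6 was the highest control: Vat1l at 1.63 CPM, Otx2 at 4.64, Klf14 at 1.27, Gimap9 at 0.361 and Npy1r at 0.602. Control replicate 3 was the lowest control in Ndufa4 (44.9 CPM) and Atp5k (6.76 CPM). N1OE replicate 4 was the highest of its group in Ndufa4 (91.1 CPM) and the lowest in Sox6 (16.4 CPM). N1OE replicate 1 was the highest in Dtx1 (0.995 CPM), which had 0 in the other N1OE libraries.

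The 2 edited lines differed from each other, by limma's N1OE minus N1KO contrast, in 15 of the 55 named genes, beside 7.35% of all genes tested. Glipr1, Itgbl1, Pltp and Wnt5b were named by the size of that very difference, and Notch1 and its targets by their place in the pathway. The count is therefore no result about the named genes. On the Notch side these were Notch1 (2.79), Hes5 (5.76), Hey1 (2.83), Hey2 (3.04), Heyl (2.68) and Dtx4 (2.16). Genes lower in N1OE and higher in N1KO than controls were Glipr1 (-5.59), Itgbl1 (-5.29), Pltp (-4.45) and Wnt5b (-4.06). Genes moved the same way in both lines but unequally were Npy1r (3.53), Kazald1 (-1.76), Hspb6 (-1.65), Cavin4 (-2.12) and Msln (-3.01). The adjusted p of the 15 ran from 6.30e-06 to 0.0440.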

How the results depend on the processing

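The counts named here are, in order, genes called in the mean contrast (201), genes moved the same way (121), genes moved opposite ways (6) and genes called the same way against disjoint controls (37). The first 3 were 942, 597 and 19 with marked controls only, 1502, 908 and 64 with unmarked controls only, and 551, 326 and 70 with the control sets as separate means. With control replicate 7 placed by its description, marked controls only gave 487 and 327 for the first 2, and unmarked controls only gave 157, 113 and 15 moved opposite ways. The mean of the 2 disjoint comparisons gave 551, 187 and 315, and the other pairing gave 57 in place of 37. The mean contrast called 335 genes with a pseudocount of 1 CPM, 368 with 5 CPM, 120 with 1 CPM in 7 libraries and 61 with the 7 edited libraries as 1 group. The filter at 7 libraries left 75 same-way genes, and array weights gave 182. Opposite genes numbered 15 and 17 with the pseudocounts, 40 with array weights and 12 with limma-voom, and disjoint calls 15 with no filter. Without each library in turn the 4 counts ranged from 75 to 217, 52 to 143, 0 to 14 and 9 to 38, the lowest without N1KO replicate 2 except that opposite genes were also 0 without N1KO replicate 1. Of the 121 genes, 42 kept the mean call in all 16 such fits (32 higher, 10 lower), and 27 kept the same-way call. Median ratio scaling shifted the median contrast by -0.03 and gave 202, 126, 7 and 37. No value of a named gene changed sign with a call under any setting run. Of the 86 rises, 42 have a control mean under 1 CPM. The share of all genes tested is not given, so this count is no result about the rises.

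With the replicate number as a block, 70 genes were called in the mean contrast, 55 moved the same way and 4 opposite ways. Deviations of libraries with the same title number from their group means correlated at -0.156 to 0.155. The column headers number the controls otherwise, and a pairing by those numbers was not examined.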

Other observations

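Further genes with a known place in capillary endothelium were among the 86 that rose, named here after their values were seen. Gpihbp1, which anchors lipoprotein lipase to capillaries, averaged 1.44 CPM in controls, 7.42 in N1OE and 15 in N1KO. Adgrl4, an endothelial adhesion receptor, averaged 1.19, 3.36 and 14.5 CPM, and Cd300lg, a capillary mucin-like receptor, 0.739, 5.06 and 4.74 CPM in the same order. The calls of Gpihbp1 and Adgrl4 held in 6 and 4 of the 16 fits that left out a library.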
